A study of Danio rerio with 6 samples.

Results

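The 6 genes of melanin synthesis and the pigment epithelium described here were followed in RNA-Seq data of dissected zebrafish retinas, out of 25190 genes in a table of raw counts and 32264 genes in a table of FPKM (fragments scaled to transcript length and to the number of mapped fragments). They were set by Ensembl identifier, with earlier results of these data known, and all 6 were found in both tables. They are *dct* (ENSDARG00000006008), *tyr* (ENSDARG00000039077), *tyrp1b* (ENSDARG00000056151), *pmelb* (ENSDARG00000033760), *oca2* (ENSDARG00000061303) and *rpe65a* (ENSDARG00000007480). The identifier ENSDARG00000033760 had been listed for choice as *pmela*, but the table of gene names and its place on chromosome 23 give it as *pmelb*, the name used here. The samples were 3 *pde6c* retina pools (PR1, PR2 and PR3; larvae homozygous for the *w59* mutation of a phosphodiesterase subunit of cones) and 3 WT pools (WR1, WR2 and WR3; offspring of WT siblings of the heterozygous carriers), all at 5 dpf (days post-fertilization). Each pool joined 3 retinas from 3 larvae, and the larvae had been dark-adapted before dissection. The mutant and WT larvae thus came from separate crosses.

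The retinal pigment epithelium is a sheet of dark cells that lies against the photoreceptor outer segments. It is not part of the neural retina, and when a larval eye is dissected some of it can stay on the retina or be lifted off. Its cells make melanin inside organelles called melanosomes, with the same enzymes as the black pigment cells of the skin and choroid, and they recycle the visual pigment through the visual cycle. RPE65, the isomerase of that cycle, marks the pigment epithelium, whereas the melanin genes mark both kinds of black cell. In a bulk sample, fewer pigment cells and less of the RNA per cell cannot be told apart.

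The libraries held between 18757605 (WR2) and 22510222 (WR1) fragments counted on genes. A floor of 3 counts in a library was worth 0.129 to 0.169 CPM (counts scaled to the library total multiplied by edgeR's TMM factor). These values cover counting error only. The targeted gene *pde6c* had 0 counts in all 6 libraries, since its span on chromosome 12 lies wholly inside the span of another gene, ENSDARG00000102349, and fragments lying on more than 1 gene were left out. Its FPKM were 60.1, 140 and 84.8 in PR1, PR2 and PR3, against 445, 655 and 520 in WR1, WR2 and WR3, and the ratio of the means was 0.176. The mutant libraries were thus the low ones for the mutated gene. Photoreceptor markers summed to between 10339 and 15537 FPKM in *pde6c* and between 24623 and 28825 FPKM in WT, and edgeR's test, described next, called 6 of the 9 photoreceptor markers tested lower in *pde6c*, beside 2.29% of all genes, and 0 higher. The log2 fold changes of the 9 ran from -1.95 (*gnat2*, a cone transducin gene) to 0.51 (*arr3a*, a cone arrestin gene, not called), with 8 negative and 1 positive.

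All 6 pigment genes passed the filter on low counts, and none of them was called different between genotypes. Genotype was tested by edgeR's quasi-likelihood test over 17242 genes with Benjamini-Hochberg adjustment, at an adjusted *P*-value under 0.1. It called 636 genes (3.69%) in either direction, with 241 (1.4%) higher and 395 (2.29%) lower in *pde6c*. It called 0 of the 6 pigment genes. At an unadjusted *P*-value under 0.05, it took 2067 genes (12%) and 0 of the 6. DESeq2 called 1081 of 18380 genes (5.88%) and 0 of the 6, with 1 of the 6 (*tyr*) at an unadjusted *P*-value under 0.05, beside 2484 genes (13.5%) in all. The values of the genotypes did not overlap for 2915 of all genes tested (16.9%) and for 0 of the 6. Of the 6 log2 fold changes, 3 were positive and 3 negative, and their median was -0.04, against 0.00 over all genes tested.

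The spans of the 6 genes lie on 6 chromosomes of GRCz10, and 0 of them overlap another counted gene. Fragments on introns were counted as well as those on exons, so a CPM is not a level per length. It is used here to compare libraries, for a gene or for a sum over genes, and not to say which gene has the higher level.

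**Figure D1:**
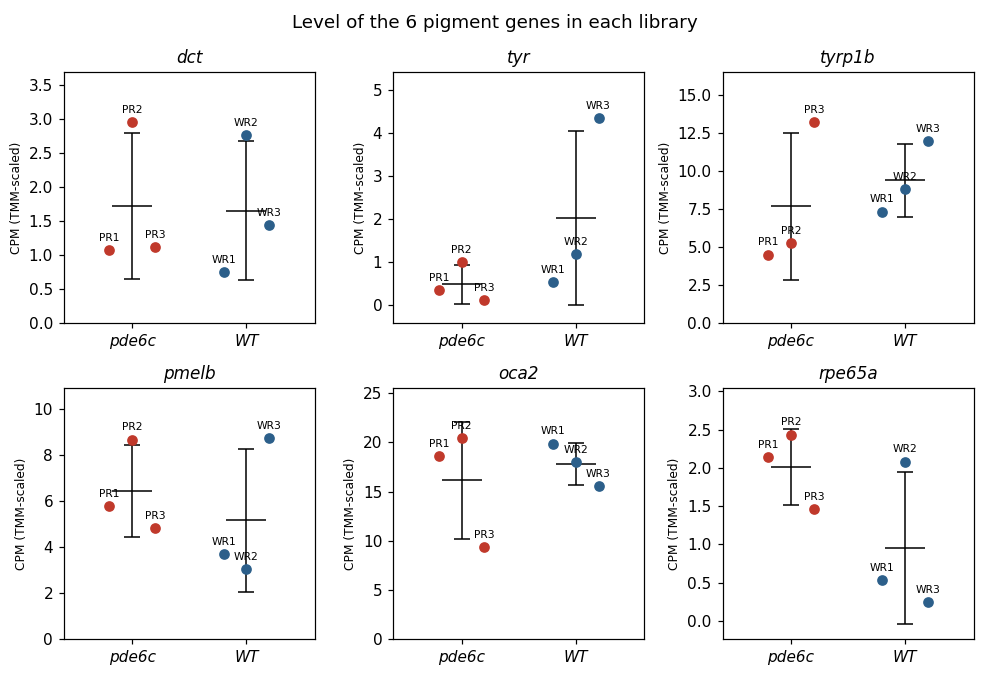
CPM (TMM-scaled, linear axis) of each of the 6 pigment genes in the 3 *pde6c* and the 3 WT libraries, with the mean (long bar) and SD of each genotype. The genotypes overlap in every panel, and single libraries such as WR3 for *tyr* (4.33 CPM) stand far from the others.

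The melanin enzymes come first. Tyrosinase, encoded by *tyr* (chromosome 15, 43776250 to 43795256), catalyses the first and limiting step of melanin synthesis. It had 8, 21 and 2 counts in PR1, PR2 and PR3, against 12, 21 and 90 in WR1, WR2 and WR3. These were 0.343, 0.983 and 0.0971 CPM in *pde6c* and 0.530, 1.18 and 4.33 CPM in WT. PR3 was under the floor of 3 counts and WR3 was well above every other library, while WR1 and WR2 lay at or near the levels of PR1 and PR2. The means were 0.474 ± 0.457 CPM in *pde6c* and 2.01 ± 2.03 CPM in WT (SD, n = 3 each), so the SD was about as large as the mean in both genotypes. The log2 fold change was -2.07 (SE 1.01, 95% interval -4.21 to 0.06, edgeR adjusted *P*-value 0.440). That was the lowest of the 6 values, and it came to -0.83 without WR3 and to -3.15 without PR2. The interval is the widest of the 6 and includes 0.

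Dopachrome tautomerase, encoded by *dct* (chromosome 9, 53788137 to 53813085), acts after tyrosinase on the way to eumelanin, the dark melanin. It had 1.07, 2.95 and 1.12 CPM in PR1, PR2 and PR3, against 0.751, 2.76 and 1.44 CPM in WR1, WR2 and WR3. Each genotype had a single high library, the one numbered 2, and the others were low. The means were 1.71 ± 1.07 CPM in *pde6c* and 1.65 ± 1.02 CPM in WT (SD, n = 3 each). This gave a log2 fold change of 0.06 (SE 0.77, 95% interval -1.58 to 1.69, edgeR adjusted *P*-value 0.990). It lay on either side of 0 as single libraries were left out.

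The other enzyme, encoded by *tyrp1b* (chromosome 1, 18639900 to 18653111), is a tyrosinase-related protein of the melanosome. It had 4.50, 5.29 and 13.2 CPM in PR1, PR2 and PR3, against 7.33, 8.83 and 11.98 CPM in WR1, WR2 and WR3. PR3 was the highest library and PR1 the lowest, so the *pde6c* values spanned those of WT. The means were 7.67 ± 4.82 CPM in *pde6c* and 9.38 ± 2.38 CPM in WT (SD, n = 3 each). The difference came to -0.29 on the log2 scale (SE 0.45, 95% interval -1.24 to 0.66, edgeR adjusted *P*-value 0.880). Leaving out each library gave -0.93 (without PR3) to -0.01 (without PR1).

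Of the melanosome proteins, the product of *pmelb* (chromosome 23, 35573739 to 35591533) belongs to the PMEL family, which builds the fibrils on which melanin is laid down. It had 5.79, 8.66 and 4.81 CPM in PR1, PR2 and PR3, against 3.71, 3.04 and 8.71 CPM in WR1, WR2 and WR3. WR3 and PR2 were high at almost the same level, and WR1 and WR2 were below all of the *pde6c* libraries. The means were 6.42 ± 2.00 CPM in *pde6c* and 5.15 ± 3.10 CPM in WT (SD, n = 3 each). On the log2 scale, *pmelb* differed by 0.32 (SE 0.50, 95% interval -0.74 to 1.38, edgeR adjusted *P*-value 0.884). Leaving out each library gave 0.04 (without PR2) to 0.94 (without WR3).

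The melanosome membrane protein encoded by *oca2* is needed for pigment in mammals and fish, and its loss causes oculocutaneous albinism in humans. Its gene is by far the longest of the 6, at 179 kb (chromosome 6, 37881002 to 38060286). It had 18.6, 20.4 and 9.37 CPM in PR1, PR2 and PR3, against 19.9, 18.0 and 15.5 CPM in WR1, WR2 and WR3. PR3 stood below the other 5 libraries, which lay close together. The means were 16.1 ± 5.92 CPM in *pde6c* and 17.8 ± 2.17 CPM in WT (SD, n = 3 each). The log2 fold change was -0.14 (SE 0.33, 95% interval -0.84 to 0.55, edgeR adjusted *P*-value 0.930), the narrowest interval of the 6, and it turned to 0.14 without PR3.

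The visual cycle gene *rpe65a* (chromosome 2, 2316199 to 2331029, minus strand) had 50, 52 and 30 counts in PR1, PR2 and PR3, against 12, 37 and 5 in WR1, WR2 and WR3. These were 2.14, 2.43 and 1.46 CPM in *pde6c* and 0.530, 2.08 and 0.241 CPM in WT. The *pde6c* libraries were alike, whereas WT had a library at their level (WR2) and a pair well below it. The means were 2.01 ± 0.502 CPM in *pde6c* and 0.950 ± 0.990 CPM in WT (SD, n = 3 each). The log2 fold change was 1.09 (SE 0.85, 95% interval -0.72 to 2.89, edgeR adjusted *P*-value 0.709), the highest of the 6. It lay between 0.64 and 2.36 as each library was left out, the higher value without WR2, and the gene was not called in any of these fits.

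The 6 genes had different high and low libraries. The highest library was PR2 for *dct*, *oca2* and *rpe65a*, WR3 for *tyr* and *pmelb*, and PR3 for *tyrp1b*. The lowest was PR3 for *tyr* and *oca2*, PR1 for *tyrp1b*, WR1 for *dct*, WR2 for *pmelb* and WR3 for *rpe65a*. WR3 was thus the highest library for *tyr* and the lowest for *rpe65a*, and PR3 was the highest for *tyrp1b* and the lowest for *tyr* and *oca2*. The number of the 6 genes above their own mean was 3 in PR1, 5 in PR2 and 2 in PR3, against 1 in WR1, 5 in WR2 and 3 in WR3.

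**Figure D2:**
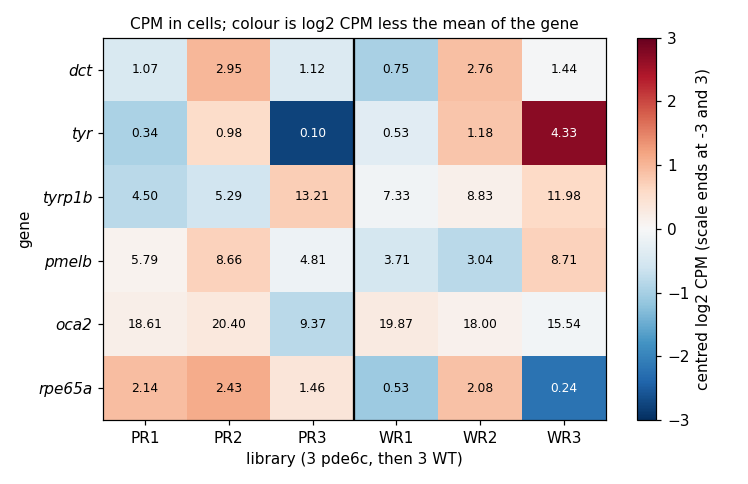
Each cell gives the CPM of a gene (rows) in a library (columns, 3 *pde6c* left of 3 WT), and its colour gives log2 CPM less the mean of the gene over the 6 libraries. No column is of a single colour: WR3 holds the deepest red (*tyr*, 4.33 CPM) and a deep blue (*rpe65a*, 0.241 CPM).

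Summed over the 6 genes, the level was 32.5, 40.7 and 30.1 CPM in PR1, PR2 and PR3, against 32.7, 35.9 and 42.3 CPM in WR1, WR2 and WR3. The means were 34.4 ± 5.59 CPM in *pde6c* and 37.0 ± 4.86 CPM in WT (SD, n = 3 each), a ratio of 0.931, and the difference was smaller than the SD of either genotype. The sum leans on genes with long spans, and *oca2* added the most counts to it. Without *oca2*, the sum was 13.9, 20.3 and 20.7 CPM in *pde6c*, against 12.9, 17.9 and 26.7 CPM in WT, with means of 18.3 ± 3.84 and 19.1 ± 7.02 CPM (SD, n = 3 each). No test was run on these sums.

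The spread between pools of 1 genotype was set beside that of other genes at like counts. The SD of log2 CPM within genotypes was 1.34 for *tyr*, against a median of 1.03 over the 500 tested genes nearest in mean level. For *rpe65a* it was 1.01 against 0.90, for *tyrp1b* 0.64 against 0.48, for *pmelb* 0.64 against 0.55, and for *oca2* 0.45 against 0.36. For *dct* it was 0.83, below the median of its neighbours (0.88). The spread was thus above that of the median neighbour for 5 of the 6 genes. The biological coefficient of variation that edgeR estimated, set beside its trend at the level of the gene, was 0.774 against 0.703 for *tyr* and 0.391 against 0.372 for *tyrp1b*. It was close to the trend for *rpe65a* (0.680 against 0.674), *pmelb* (0.434 against 0.432) and *oca2* (both 0.291), and below it for *dct* (0.632 against 0.654). These estimates are shrunk towards the trend by edgeR, so closeness to the trend is partly built in. Within a genotype, the highest library of *rpe65a* was 1.67 times the lowest in *pde6c* and 8.65 times in WT, and that of *oca2* was 2.18 times in *pde6c* and 1.28 times in WT. These are descriptions, with no test.

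FPKM divide by transcript length, so they allow the genes to be set against each other. The order of the mean FPKM over the 6 libraries was *tyrp1b* (7.22), *rpe65a* (1.68), *dct* (1.61), *pmelb* (0.996), *oca2* (0.566) and *tyr* (0.0762). The median gene of the count table had 2.79 FPKM, so *tyrp1b* alone of the 6 was above it, with 64% of the 25190 genes at or below its level. For *tyr*, 22.3% of genes were at or below. In FPKM, *tyrp1b* had 4.28, 4.61 and 11.3 in PR1, PR2 and PR3, against 5.31, 10.3 and 7.60 in WR1, WR2 and WR3. The range of *tyrp1b* (4.28 to 11.3) lay above those of the other 5 genes, of which the highest single value was 3.41 (*dct* in PR2). The ranges of *rpe65a* (0.203 to 2.81), *dct* (0.430 to 3.41), *pmelb* (0 to 1.56) and *oca2* (0.193 to 1.12) overlapped, and neighbours in that order did not differ beyond their spread.

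In FPKM too, none of the pigment genes was called. A limma test on log2(FPKM + 1), which understates changes of low genes, was run on genes with at least 1 FPKM in at least 3 libraries. It called 269 of 14879 genes (1.81%) and 0 of the 4 pigment genes that passed this filter (*dct*, *tyrp1b*, *pmelb* and *rpe65a*), none of which had an unadjusted *P*-value under 0.05, beside 10.4% of all genes in this test. For *rpe65a* the FPKM were 2.19, 2.41 and 1.95 in PR1, PR2 and PR3, against 0.203, 2.81 and 0.526 in WR1, WR2 and WR3, with a difference of 0.73 on the log2(FPKM + 1) scale (limma adjusted *P*-value 0.680), or 1.47 with a pseudocount of 0.1 in place of 1 (0.658). WR1 and WR3 were again the low libraries and WR2 again at the *pde6c* level. For *pmelb* the FPKM were 0.714, 1.56 and 0 in *pde6c*, against 1.23, 0.926 and 1.54 in WT, and the difference was -0.44 (limma adjusted *P*-value 0.811), of the opposite sign to that in counts, or -1.35 with a pseudocount of 0.1 (0.760). For *dct* they were 0.839, 3.41 and 1.71 in *pde6c*, against 0.759, 0.430 and 2.52 in WT. WR2, high for *dct* in counts, was here its lowest library.

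The gene *tyr* was listed at 0 FPKM in PR1, PR2, PR3 and WR2, and at 0.400 in WR1 and 0.0575 in WR3. PR2 and WR2 each had 21 counts on it, and WR3, with 90, had a lower FPKM than WR1 with 12. Counts and FPKM therefore order these libraries differently. The summed FPKM of the 6 genes were 8.78, 12.6 and 15.1 in PR1, PR2 and PR3, against 9.02, 14.9 and 12.6 in WR1, WR2 and WR3, with means of 12.1 ± 3.19 in *pde6c* and 12.2 ± 2.96 in WT (SD, n = 3 each). This sum leans on *tyrp1b*, which alone averaged 6.71 FPKM in *pde6c* and 7.73 in WT.

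CPM on library totals (no TMM) divided by FPKM gives a length at which both tables would match. CPM divide by fragments counted on genes and FPKM by mapped fragments. The lengths are thus rough and are read against those of other genes. Over 14576 tested genes with FPKM above 0 in all libraries, the median length was 2.26 kb, with quartiles at 1.11 and 4.70 kb. The median over libraries was 1.17 kb for *tyrp1b* (span 13.2 kb), 0.930 kb for *dct* (24.9 kb) and 0.885 kb for *rpe65a* (14.8 kb), each below the 2.26 kb of those genes. Single libraries differed: *dct* came to 6.07 kb in WR2 and to 0.556 to 1.36 kb in the others, and *rpe65a* to 0.444 to 2.62 kb. The median was 5.48 kb for *pmelb* (17.8 kb) and 37.4 kb for *oca2* (179 kb). For *tyr* the length was 1.33 kb in WR1 and 73.2 kb in WR3, and its span is 19.01 kb. Of the 14576 genes, 93 (0.638%) had a median over libraries above their own span. That set leaves out the 2666 tested genes (15.5%) listed at 0 FPKM in at least 1 library, *tyr* among them. The share is thus no measure of how rare the single value of *tyr* in WR3 is. The counts on *oca2*, and those on *tyr* in WR3, were thus many more than the FPKM of these genes account for at a transcript's length. Whether those fragments came from introns was not tested, since no reads were used here.

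**Figure D3:**
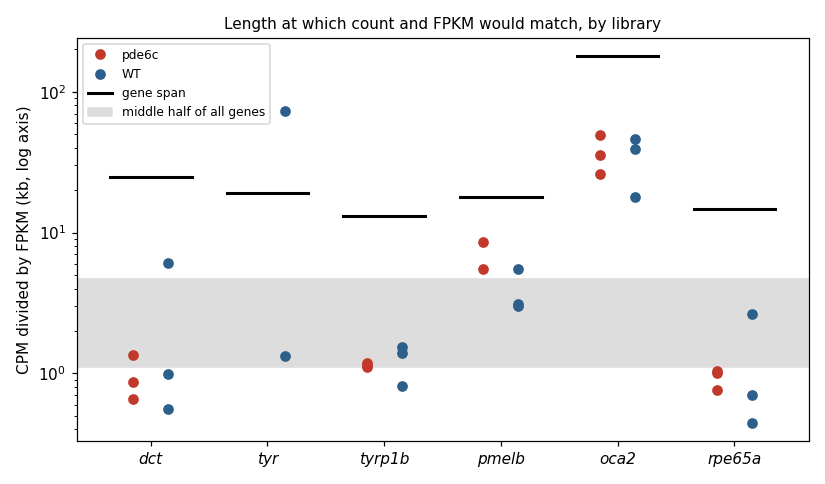
CPM on library totals (no TMM) divided by FPKM in kb (log axis) for each pigment gene and library. Also drawn are the span of the gene (black bar) and the range between the quartiles of all tested genes (grey, 1.11 to 4.70 kb). Libraries listed at 0 FPKM have no point: for *tyr* only WR1 (1.33 kb) and WR3 (73.2 kb) are drawn, and *oca2* lies above the grey range in every library.

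The other genes of pigment cells and the pigment epithelium were taken as 3 lists of 50 genes, of which 46 were in the count table and 37 passed the filter. Of these 37, 1 was called (lower) and 0 were higher, beside 3.69% of all genes, and 4 had an unadjusted *P*-value under 0.05, beside 12% of all genes. The values of the genotypes did not overlap for 4 of the 37, beside 16.9% of all genes. The median log2 fold change of the 37 was 0.20, with 21 positive and 16 negative. The highest genes of the 3 lists, *rdh10a* (94.6), *otx2b* (70.4) and *myo5aa* (66.1 mean FPKM), lay far above *tyrp1b* (7.22), the highest of the 6. Which cells their RNA came from was not tested, so these shares are not those of pigment cells alone.

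Among the melanosome genes, 18 of 24 were tested, 0 were called higher and 1 lower, with a median log2 fold change of 0.24. The gene called was *myo7aa*, which encodes an unconventional myosin that moves melanosomes in the pigment epithelium of mammals and also works in hair cells and photoreceptors. It had 88.7, 107 and 67.2 CPM in PR1, PR2 and PR3, against 166, 156 and 123 CPM in WR1, WR2 and WR3, and every *pde6c* library was below every WT library. The means were 87.5 ± 19.7 CPM in *pde6c* and 148 ± 22.2 CPM in WT (SD, n = 3 each), while the log2 fold change was -0.76 (95% interval -1.17 to -0.36, edgeR adjusted *P*-value 0.0419). The call was lost without PR1, PR3, WR1 or WR2 (log2 fold changes -0.76, -0.59, -0.67 and -0.73, edgeR adjusted *P*-values 0.121, 0.229, 0.166 and 0.141) and in FPKM (0.451, limma). It was kept without PR2 or WR3 (log2 fold changes -0.93 and -0.87, edgeR adjusted *P*-values 0.0311 and 0.0481) and by DESeq2 (adjusted *P*-value 0.00922). Leaving out a library also lowered the number of all genes called, from 636 to between 414 and 537. Photoreceptor markers were lower in the same libraries, as given above, and their part in the value of *myo7aa* was not tested. The other genes of highest mean CPM in this list overlapped between genotypes: *myo5aa*, a myosin of melanosome transport in mammalian skin, averaged 227 ± 26.2 CPM in *pde6c* and 202 ± 10.5 CPM in WT, and *atp7a*, a copper pump that supplies tyrosinase, averaged 34.7 ± 4.66 and 27.9 ± 3.07 CPM (SD, n = 3 each), neither called.

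Close copies of the 6 genes were at low counts. The paralogue *tyrp1a* had 37, 18 and 18 counts in *pde6c*, against 24, 0 and 0 in WT (edgeR adjusted *P*-value 0.705), and it was called higher without WR1 (0.0731), where both WT libraries left have 0 counts. Its FPKM were 1.27 to 2.297 in *pde6c*, against 0.502, 0.173 and 0.848 in WT, so WR2 and WR3 were not at 0 there. The genotypes did not overlap in FPKM, but *tyrp1a* was not called (difference 0.84 on the log2(FPKM + 1) scale, limma adjusted *P*-value 0.524). The gene named *pmela* (ENSDARG00000091298) had 23, 26 and 4 counts in *pde6c*, against 2, 18 and 8 in WT (edgeR adjusted *P*-value 0.869). Its span overlaps 1 other gene, so that shared fragments were not counted. The FPKM of *pmela* were 2.633, 3.503 and 2.098 in *pde6c*, against 1.496, 0.1755 and 1.063 in WT. There the genotypes did not overlap, but the gene was not called (difference 1.02 on the log2(FPKM + 1) scale, limma adjusted *P*-value 0.449). The share of all genes without overlap in FPKM was not taken, so neither *tyrp1a* nor *pmela* can be set beside it. WR3, with 0 counts on *tyrp1a*, was the highest WT library for *tyrp1b*. The identifiers of *rpe65b* and *rpe65c* on chromosome 8 could not be told apart. One of them (ENSDARG00000054420) had 8, 0 and 2 counts in *pde6c*, against 29, 22 and 22 in WT, where the genotypes did not overlap but the test did not call it (log2 fold change -2.95, edgeR adjusted *P*-value 0.232). Its FPKM were 0.166, 0 and 0 in *pde6c*, against 0, 0 and 0.0699 in WT, and so did not show the higher WT level of the counts. The other (ENSDARG00000094752) had 13, 5 and 6 counts in *pde6c*, against 1, 4 and 8 in WT, and was too low to test. These copies, the genes *mitfa*, *mertka*, *rdh5*, *lrata* and *slc7a11* named next, and the single markers of other tissues were chosen after their values were seen.

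Of the regulators of pigment cells, 7 of 9 were tested and 0 were called in either direction, with a median log2 fold change of -0.28. The homeobox gene *otx2b*, needed for pigment epithelium and photoreceptor fate, averaged 45.6 ± 11.6 CPM in *pde6c* and 55.5 ± 22.3 CPM in WT, the receptor gene *kita*, of melanophores, 13.7 ± 3.56 and 20.2 ± 7.23 CPM, and *otx1* 4.80 ± 2.93 and 5.06 ± 2.55 CPM (SD, n = 3 each). The melanocyte factor gene *mitfa* had 0.901, 0.749 and 0.486 CPM in *pde6c*, against 0.442, 1.24 and 2.60 CPM in WT.

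Of the other visual cycle and pigment epithelium genes, 12 of 17 were tested and 0 were called in either direction, with a median log2 fold change of 0.36 and 3 at an unadjusted *P*-value under 0.05. The opsin-like gene *rgra*, whose mammalian counterpart is a photoisomerase of pigment epithelium and Müller cells, had 60.3, 62.4 and 61.4 CPM in *pde6c*, against 43.8, 39.6 and 39.6 CPM in WT. The genotypes did not overlap, and the log2 fold change of 0.58 missed the threshold (edgeR adjusted *P*-value 0.138; 0.0323 by DESeq2). The gene *mertka*, whose mammalian counterpart lets the pigment epithelium, and macrophages, engulf debris, had 9.26, 11.7 and 33.0 CPM in *pde6c*, against 9.80, 5.06 and 4.48 CPM in WT. PR3 alone was far above WT, with a log2 fold change of 1.48 (edgeR adjusted *P*-value 0.144; 0.0354 by DESeq2) and 0.71 without PR3. It was called without PR1 (0.0752) and without WR1 (0.0999, edgeR). The genes *rdh10a* and *trpm3* averaged 78.5 ± 12.7 and 78.4 ± 16.1 CPM in *pde6c*, against 79.9 ± 3.74 and 61.7 ± 15.2 CPM in WT (SD, n = 3 each). The other 5 genes of the list were too low to test, among them *rdh5* and *lrata*, which serve the visual cycle in mammals.

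**Figure D4:**
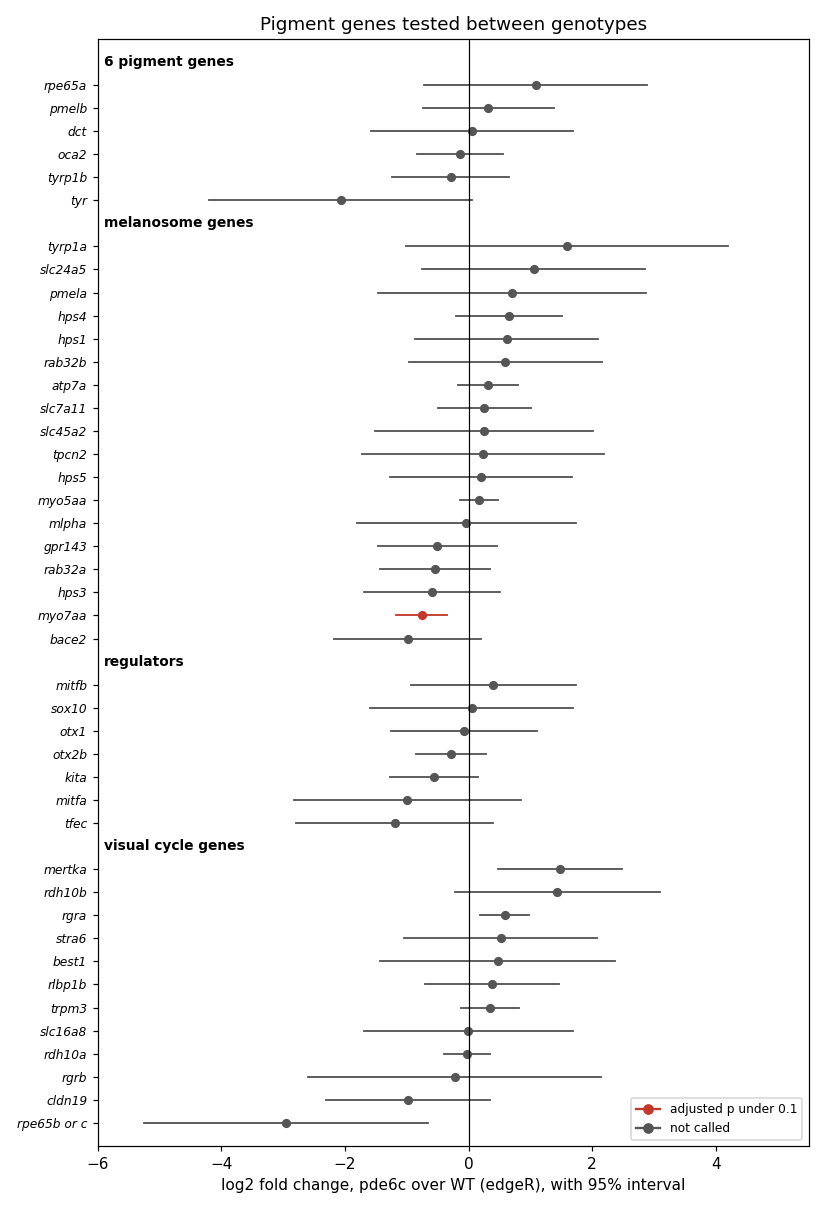
Log2 fold change (*pde6c* over WT, edgeR) with its 95% interval for the 6 pigment genes and the 37 tested genes of the 3 other lists. All 6 intervals of the pigment genes cross 0, and *myo7aa* (-0.76) is the only gene drawn in red, as called.

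In FPKM, the median of the 6 genes lay far below those of neural retina markers, below that of vessel and blood markers, and above those of the lens, skin and other pigment cell lists. The median of the mean FPKM was 1.30 for the 6 genes, 1.17 for the melanosome list, 0.989 for the regulators and 0.654 for the other visual cycle genes. It was 157 for inner retina markers and 1051 for photoreceptor markers, against 3.00 for vessel and blood, 0.227 for lens and 0.125 for skin, muscle and cartilage markers. Iridophore and xanthophore markers, of the other pigment cells, had a median of 0.394 FPKM, and 0 of 8 tested were called, beside 3.69% of all genes. Their summed level was 40.0 to 56.2 CPM in *pde6c*, against 32.8 to 46.8 CPM in WT. Among the tissues next to the retina, lens markers summed to 2.90 to 3.69 CPM in *pde6c*, against 3.13 to 6.13 CPM in WT, with *cryba2a*, *crybb1l2*, *crybb1l3* and *gja8b* at 0 in all libraries (all but *gja8b* overlap 1 other gene, so shared fragments were not counted, and *cryba2a* and *crybb1l3* reached 1.19 and 2.96 FPKM). In FPKM, lens markers summed to 4.11 to 7.62 in *pde6c*, against 8.28, 29.0 and 8.18 in WR1, WR2 and WR3, so WR2 stood apart, with 23.2 FPKM from *cryba4*. In CPM, WR2 was the highest WT library for *dct* and *rpe65a* and the lowest for *pmelb*. The part of lens tissue in these values was not tested. Vessel and blood markers summed to 98.2 to 127 CPM in *pde6c*, against 118 to 154 CPM in WT, with *hbae1.1*, which overlaps 5 others, at 0 counts. That sum leans on *cdh5* (mean 91.8 CPM), which overlaps 1 other gene. Of the 5 vessel and blood genes tested, 4 had positive log2 fold changes and 1, *cdh5*, a negative one (-0.35), with a median of 0.12. Skin, muscle and cartilage markers summed to 17.2 to 23.1 CPM in *pde6c*, against 13.9 to 23.4 CPM in WT, with *epcam* at 0. Most of that sum came from *col2a1a* (mean 11.1 CPM and 3.47 FPKM) and *ckma* (7.41 CPM). None of the 3 lens, 5 vessel and blood, or 3 skin, muscle and cartilage markers tested was called, beside 3.69% of all genes. With so few tested at that share, this does not show whether these tissues differ between genotypes. How much of the pigment genes' RNA came from pigment epithelium, from choroid or from the retina itself was not tested.

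**Figure D5:**
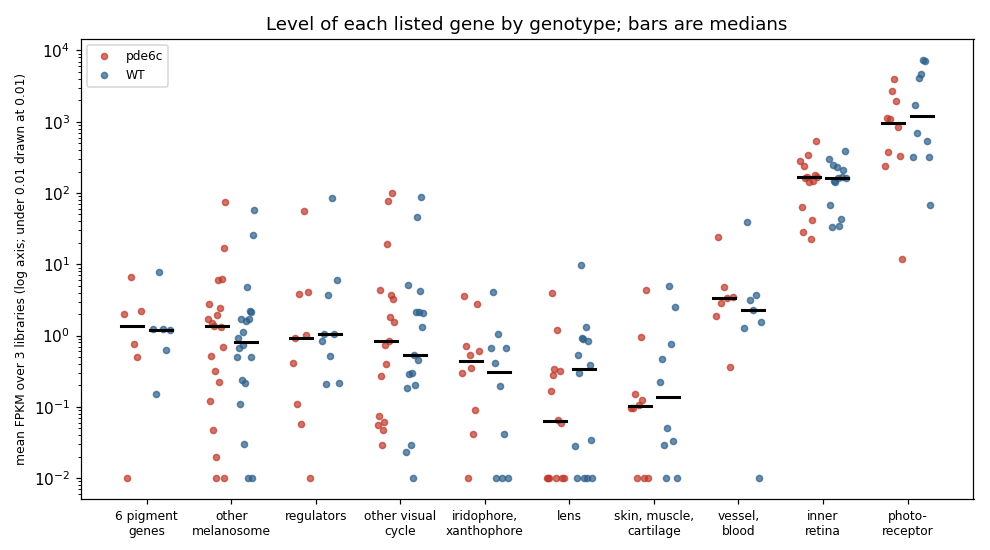
Mean FPKM over 3 libraries (log axis; values under 0.01 drawn at 0.01) of each listed gene in *pde6c* (left, red) and WT (right, blue), with the median of each list as a bar. The medians of the 6 genes and the 3 other pigment lists (0.654 to 1.30 FPKM over both genotypes) lie far below those of the inner retina and photoreceptor lists (157 and 1051). Single genes reach higher, up to 94.6 FPKM (*rdh10a*), and overlap the neural lists, whose lowest genes are at 28.6 and 40.2 FPKM.

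Genes with a pattern over the 6 libraries most like the mean pattern of the 6 genes were sought by the root mean square difference of centred log2 CPM. The 14518 genes ranked were the other tested genes with a mean log2 CPM of at least 1. The nearest were *ADRM1* (0.07), *si:ch211-274f20.2* (0.08), *col4a6* (0.09), *zgc:110540* (0.09) and *INIP* (0.10 log2 units). The mean pattern is high in PR2, WR2 and WR3 and low in PR3 and WR1, and it does not separate the genotypes. The 6 genes themselves, which make up that mean, lay between 0.39 (*dct*) and 1.17 (*tyr*) from it, and the median over all genes ranked was 0.50. Only *dct* and *oca2* (0.40) of the 6 lay below that median. The means of *tyr*, *rpe65a* and *dct* (1.24, 1.48 and 1.68 CPM) were under the level asked of the ranked genes. Their distances are thus not set against genes of like counts. Of the other pigment lists, the nearest gene was *slc7a11* at 0.36, in place 2783. These distances are over 6 libraries only and are given with no test.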

How the data were processed

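The study sequenced amplified RNA of 3 *pde6c* and 3 WT retina pools. Per the file headers, the deposited counts are unnormalized and unstranded, take in introns, and leave out fragments that lay on several genes or mapped to several places. The authors made them with featureCounts 1.5.2 from STAR 2.5.3a alignments to GRCz10. The authors also deposited FPKM from Cufflinks 2.2.1. Versions follow the submitters' processing notes. No depth can be read from the FPKM, and the FPKM columns of PR2 and WR1 have R1 in their names where the others do not, and the sources used here do not say why.

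Counts were filtered (filterByExpr), scaled (TMM) and tested with edgeR 4.0.16 (estimateDisp, glmQLFit, glmQLFTest; R 4.3.3) on genotype alone, at an adjusted *P*-value under 0.1. Standard errors are those implied by the F statistic. FPKM were tested with limma 3.58.1. Alternatives were DESeq2 1.42.0, other scalings, filters and thresholds, robust dispersions, the replicate block, and leaving out each library. Names were matched to 22595 of 25190 identifiers (89.7%), with close copies told apart by chromosome against a RefSeq table of another assembly.

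The genes and lists were chosen with earlier results of these data known. Named were the 6 genes, *pde6c*, in each other pigment list the called genes and the 3 with the highest mean CPM, and the 5 genes of most like pattern. Other genes were named after their values were seen. No sequences are shown, as no sequence tables were used here.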

Additional observations from a re-analysis of the deposited data

How the results depend on the processing

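None of the 6 pigment genes was called in any of the 15 alternatives run on counts or FPKM, though *tyr* and *rpe65a* were not tested with at least 10 counts in every sample, and *tyr* and *oca2* not in FPKM. DESeq2 called 1081 genes (500 higher), a replicate block 984 (393 higher), and limma on FPKM 269 (112 higher, 157 lower), against 636 (241 higher, 395 lower). Leaving out each library gave 414 to 537 called genes, with 164 to 234 higher and 246 to 311 lower. Other pigment genes called numbered 3 by DESeq2, 2 with library totals, 2 with at least 10 counts in every sample, 2 with the replicate block, 0 in FPKM and 0 to 2 as libraries were left out, against 1. The share of all genes called moved as well (5.88% by DESeq2 and 1.81% in FPKM, against 3.69%). These counts are therefore not read as a result about pigment genes. The log2 fold change of *pmelb* was -0.44 in FPKM. That of *dct* ran between -0.59 and 0.64, and that of *oca2* between -0.35 and 0.14, as libraries were left out, and *tyr* (-3.15 to -0.83), *tyrp1b* (-0.93 to -0.01), *pmelb* (0.04 to 0.94) and *rpe65a* (0.64 to 2.36) kept their signs. The causes were not tested. Same-numbered samples were no more than weakly alike (correlations of their deviations 0.088, 0.043 and 0.035). Pairs of unlike number lay between -0.050 and -0.00065, so each sample correlated best with its own number. Deviations were taken from the mean of each genotype, so positive values for some pairs push those of the others below 0. The negative values thus add nothing of their own to the small positive ones. That is a hint from the data and not the design. With 3 samples in each genotype, some matching of numbers must come out best. What the shared numbers stand for was not tested. Counts per library were 2 to 90 for *tyr*, 5 to 52 for *rpe65a* and 17 to 63 for *dct*.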
